A study of Mus musculus with 6 samples.

Results

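The immediate early response genes described here are Fos, Fosb, Jun, Junb, Egr1, Egr3, Nr4a1, Ier2, Atf3 and Dusp1. They were chosen by name, and all 10 were found by gene identifier among the 48709 mouse genes of the count table. Cochlear RNA was sequenced from 3 mice of the genotype Hgfdel10Neo/del10Neo, called KI, and from 3 Hgf+/+ littermates, called wt. On both copies of Hgf the KI mice lack 10 bp of intron 5 and carry the Neo cassette that the genotype names, and wt mice carry neither. All mice were between 5 and 27 weeks old and were killed with CO2, and the tissue was frozen in liquid nitrogen, per the labels' protocols. No label used here ties an age, a sex or a time of death to a mouse.

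Immediate early genes are transcribed within minutes of a stimulus without the need for new protein synthesis, and their mRNAs are short-lived. Growth factor receptors, depolarization, cytokines and cell stress act on them through MAP kinases, which phosphorylate the ternary complex factors bound beside serum response factor, and through the factor CREB, which binds cAMP response elements. Most of the encoded proteins are transcription factors that switch on a second wave of genes, and others, such as the phosphatase Dusp1, shut the kinases off again. In the inner ear these genes are known to respond to noise and injury, and Met, the receptor of Hgf, is itself a tyrosine kinase that activates MAP kinases.

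All 10 genes passed the filter on low counts and were measured in every library. All 10 had their highest level in the same wild-type library, wt replicate 1, as did 19.4% of all genes tested. Of the 10, 0 passed the test between KI and wt cochleae, which 0.0338% of all genes passed. Only Nr4a1 of the 10 had every KI value below every wt value, as 4.01% of all genes had. Leaving out wt replicate 1 could not undo this for Nr4a1 and added none of the other genes, while 8.67% of all genes then showed it. The median log2 fold change of the 10 genes was -0.80 with all libraries and -0.14 without wt replicate 1. Between the remaining libraries the genes did not move together, with r over 0.8 in 5 of 45 pairs, against 6.25% of all gene pairs. As a description over 5 libraries, 2 sets with opposite profiles were seen and not tested. In KI replicate 3 one set was at its lowest and the other at its highest of these 5. Nr4a1, in neither set, was also at its lowest in that library.

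The libraries held 24005234 to 42312291 gene counts, wt replicate 1 being among the shallower at 24144106. The share taken by the 2 mitochondrial ribosomal RNAs was 28.9%, 24.4% and 27.4% in KI replicates 1, 2 and 3, and 21.03%, 24.7% and 26.0% in wt replicates 1, 2 and 3, so that it was lowest in wt replicate 1. Hgf itself was at 10.07 ± 0.724 CPM (gene counts scaled to library size by TMM) in KI and 15.6 ± 0.572 CPM in wt cochleae (SD, n = 3 each). Its log2 fold change of KI over wt was -0.63 (SE 0.111), which did not pass in edgeR (adjusted p = 0.246). All 18 genes of the cochlear marker list were detected, among them Coch and Otos of the fibrocytes and Strc of hair cells. Abundant Xist RNA was found in KI replicate 3 (758 CPM) and wt replicate 2 (854 CPM), against 0.402 to 0.906 CPM in the other libraries. Ddx3y of the Y chromosome was at 1.13 CPM in KI replicate 3, 0.0336 CPM in wt replicate 2 and 76.7 to 88.9 CPM in the others. KI replicate 3 and wt replicate 2 thus had the pattern of females, and the other libraries, wt replicate 1 among them, that of males. In whole cochleae, fewer cells of a type and less RNA per cell cannot be told apart.

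The promoter of an immediate early gene is where the signals above are read, so the 250 bases before the annotated start are shown for 5 of the genes. Fos, Fosb and Nr4a1 stood furthest above the other libraries in wt replicate 1 among the genes with an entry, Jun stood least above them, and Dusp1 holds a full cAMP response element. Sequences and starts are from RefSeq on GRCm38.p6 (for Nr4a1 and Dusp1 the start lies inside the longer gene of the annotation used for the counts) and are written 5′ to 3′ on the strand of the gene. Capitals mark the half-site TGACG of the cAMP response element on either strand (CGTCA on the other) and the TATA box TATAAA on the gene's strand.
Fos (chr12:85473640-85473889, forward strand): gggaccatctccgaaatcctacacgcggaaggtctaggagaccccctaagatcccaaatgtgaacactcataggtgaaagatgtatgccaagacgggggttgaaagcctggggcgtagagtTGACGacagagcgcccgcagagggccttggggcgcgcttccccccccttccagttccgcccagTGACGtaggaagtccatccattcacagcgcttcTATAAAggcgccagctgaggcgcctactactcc
Fosb (chr7:19310046-19310295, reverse strand): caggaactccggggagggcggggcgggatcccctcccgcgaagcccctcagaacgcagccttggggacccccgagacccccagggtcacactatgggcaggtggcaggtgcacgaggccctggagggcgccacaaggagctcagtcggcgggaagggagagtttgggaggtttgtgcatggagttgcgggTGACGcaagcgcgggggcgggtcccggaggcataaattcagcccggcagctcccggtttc
Nr4a1 (chr15:101266596-101266845, forward strand): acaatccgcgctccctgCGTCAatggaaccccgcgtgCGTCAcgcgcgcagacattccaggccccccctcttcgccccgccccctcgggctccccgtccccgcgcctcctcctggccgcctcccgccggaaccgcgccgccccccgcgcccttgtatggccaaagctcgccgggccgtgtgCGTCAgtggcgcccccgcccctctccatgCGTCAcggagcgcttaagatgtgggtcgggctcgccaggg
Jun (chr4:95052223-95052472, reverse strand): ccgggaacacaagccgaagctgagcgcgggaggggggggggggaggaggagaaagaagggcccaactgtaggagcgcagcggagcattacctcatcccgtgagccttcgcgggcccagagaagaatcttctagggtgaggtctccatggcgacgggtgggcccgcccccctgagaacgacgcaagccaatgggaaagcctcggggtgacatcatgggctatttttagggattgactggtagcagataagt
Dusp1 (chr17:26508473-26508722, reverse strand): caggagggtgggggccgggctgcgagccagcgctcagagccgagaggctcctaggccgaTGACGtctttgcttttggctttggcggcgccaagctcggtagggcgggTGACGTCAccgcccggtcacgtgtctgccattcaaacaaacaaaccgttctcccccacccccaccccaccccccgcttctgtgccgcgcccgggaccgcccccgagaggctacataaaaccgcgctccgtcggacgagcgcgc

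Promoter entries were found for 7 of the 10 genes, the 5 above with Junb and Atf3. The half-site TGACG was present in 6 of these 7, all but Jun, and in 17.8% of all 32851 promoters of the same length. Nr4a1 held 4 copies, from 233 to 36 bases before the start. Fos held 2, at 129 and 66 bases before the start, with the TATA box beginning 33 bases before it. Dusp1 alone held the full element TGACGTCA, 143 bases before the start, which 1.55% of all promoters hold and which contains the half-site on both strands. The EGR site, searched as GCGGGGGCG and GCGTGGGCG on both strands, was present in Fosb and Nr4a1 and in 3.06% of all promoters. The GC box GGGCGG, which overlapped the EGR site in both genes, was present in 6 of the 7 promoters and in 32.7% of all. No match to the CArG box of serum response factor, by its usual consensus, or to the AP-1 site TGANTCA was found in these windows (1.47% and 6.75% of all promoters). Sequence farther from the start, variants of these motifs, and the promoters of Egr1, Egr3 and Ier2 were not searched. These matches describe letters and not bound sites.

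The Fos family supplies the partners that make AP-1 with Jun proteins. Fos (ENSMUSG00000021250, chromosome 12, 85473890 to 85477273, GRCm38) was at 6.82, 11.2 and 9.45 CPM in KI replicates 1, 2 and 3, and at 79.9, 10.9 and 10.5 CPM in wt replicates 1, 2 and 3. A single wt library was high, and the other 2 wt libraries lay inside the KI range. Its log2 fold change was -1.88 (SE 0.702), and it did not pass edgeR's quasi-likelihood test (adjusted p = 0.966). Without wt replicate 1 the log2 fold change was -0.23 (SE 0.203).

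Fosb (ENSMUSG00000003545, chromosome 7, 19302696 to 19310051), the closest relative of Fos in the set, was at 0.332, 0.819 and 1.43 CPM in the KI libraries and at 4.86, 1.28 and 0.549 CPM in the wt libraries. These values rested on 11, 24 and 33 counts in KI and 121, 38 and 23 counts in wt, so that counting error alone gave a 95% interval (exact Poisson) of 0.166 to 0.594 CPM in KI replicate 1 and of 4.04 to 5.81 CPM in wt replicate 1. The groups overlapped, with KI replicate 3 above the other 2 wt libraries. The log2 fold change of Fosb was -1.37 (SE 0.755; edgeR adjusted p = 0.966), and -0.10 without wt replicate 1.

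Jun and Junb are the Jun family members of the set, Jun being the stronger activator. Jun (ENSMUSG00000052684, chromosome 4, 95049034 to 95052222) was the steadiest of the 10, at 25.7, 24.2 and 26.5 CPM in KI and 39.6, 29.7 and 24.3 CPM in wt. Its coefficient of variation over the 6 libraries was 20.8%, against 134% for Fos. The KI libraries lay within a narrow range that also held wt replicate 3. The log2 fold change was -0.29 (SE 0.165; edgeR adjusted p = 0.966).

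Junb (ENSMUSG00000052837, chromosome 8, 84974484 to 84978718) was at 26.4, 26.7 and 21.1 CPM in KI and 81.5, 25.8 and 30.4 CPM in wt. Again wt replicate 1 was alone, and wt replicate 2 was below KI replicates 1 and 2. The log2 fold change of Junb was -0.89 (SE 0.370; edgeR adjusted p = 0.966), and -0.19 without wt replicate 1. The gene ends inside Prdx2 on the opposite strand, by 351 bases, and since the strand setting of the counting was not given, reads there may not be separable. Prdx2 had 6104 raw counts in wt replicate 1 and between 5245 and 11400 in the other libraries. These counts are not scaled to library size, and wt replicate 1 was among the shallower libraries. Jun likewise shares 689 bases with the antisense gene Junos (66 to 130 counts per library), and Dusp1 shares 640 bases with Ergic1 (1398 to 2095 counts).

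Egr1 and Egr3 are zinc finger factors that bind GC-rich sites. Egr1 (ENSMUSG00000038418, chromosome 18, 34859823 to 34864984) was at 20.6, 17.4 and 11.1 CPM in KI replicates 1, 2 and 3, and at 102, 17.6 and 34.9 CPM in wt replicates 1, 2 and 3. Here 2 of the 3 wt libraries were above every KI library, and wt replicate 2 lay between KI replicates 1 and 2. The log2 fold change was -1.64 (SE 0.528; edgeR adjusted p = 0.966). Without wt replicate 1 it was -0.68 (SE 0.309), the most negative of the 10 in that fit.

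With no filter on low counts Egr1 passed in edgeR (adjusted p = 0.0350), in a fit that called 76 genes (0.223% of 34124). Under the other settings tried, which include leaving out each library, the adjusted p of Egr1 was at least 0.473. With no filter and without wt replicate 1 it passed as well (adjusted p = 0.00138), where 337 genes were called (0.998% of 33781); that combination was chosen after seeing the data. Egr3 (ENSMUSG00000033730, chromosome 14, 70077203 to 70082614) was at 3.44, 3.79 and 2.17 CPM in KI and 6.43, 2.86 and 3.42 CPM in wt. The fold change was -0.41 on the log2 scale (SE 0.321; edgeR adjusted p = 0.966), and 0.0019 (SE 0.261) without wt replicate 1.

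Nr4a1 (ENSMUSG00000023034, chromosome 15, 101254269 to 101274795), an orphan nuclear receptor also known as Nur77, was at 11.3, 12.0 and 9.80 CPM in KI and 54.9, 17.3 and 12.9 CPM in wt. It was the only 1 of the 10 genes with every KI library below every wt library, which 4.01% of the 20733 genes tested showed in that direction (4.71% the other way). Leaving out wt replicate 1 could not undo this separation, which 8.67% of genes then showed. The log2 fold change was -1.35 (SE 0.455; edgeR adjusted p = 0.966), and -0.45 (SE 0.165; unadjusted p = 0.0248, adjusted p = 0.999 in edgeR) without wt replicate 1.

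Ier2 (ENSMUSG00000053560, chromosome 8, 84661331 to 84662852), a small nuclear protein gene of the same early wave, was at 11.3, 8.91 and 6.89 CPM in KI and 22.8, 11.3 and 10.7 CPM in wt. The wt replicates 2 and 3 lay just below KI replicate 1 and above the other KI libraries. Its log2 fold change of -0.71 (SE 0.293; edgeR adjusted p = 0.966) was -0.27 without wt replicate 1.

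Atf3 and Dusp1 belong to the stress and feedback side of the response. Atf3 (ENSMUSG00000026628, chromosome 1, 191170296 to 191218039), a repressor of the ATF family induced by injury, was at 5.22, 6.01 and 6.89 CPM in KI and 11.3, 6.66 and 4.68 CPM in wt. It was the only gene of the 10 whose lowest library was wt. Its log2 fold change was -0.31 (SE 0.286; edgeR adjusted p = 0.971) and turned to 0.092 without wt replicate 1.

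Dusp1 (ENSMUSG00000024190, chromosome 17, 26505590 to 26562128), which dephosphorylates MAP kinases, was at 26.9, 34.8 and 42.6 CPM in KI and 74.1, 39.9 and 31.7 CPM in wt. The groups overlapped, KI replicate 3 being above wt replicates 2 and 3. Its log2 fold change was -0.48 (SE 0.286; edgeR adjusted p = 0.966), and -0.04 without wt replicate 1.

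**Figure D1:**
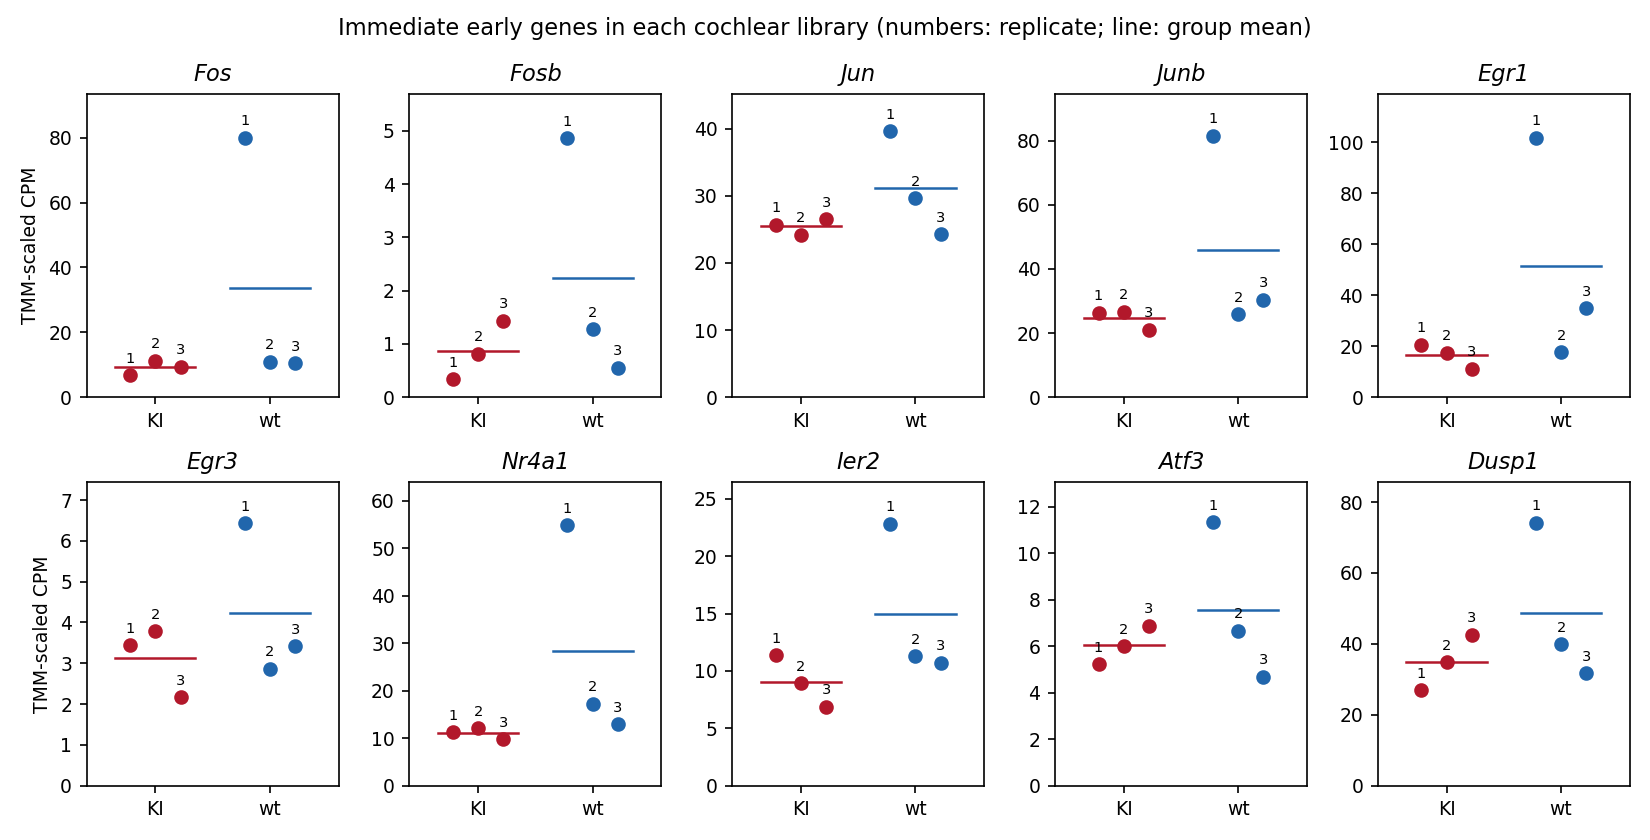
Each panel plots 1 gene in TMM-scaled CPM on a linear axis from 0, with the KI libraries on the left and the wt libraries on the right, numbered by replicate; lines are group means. In each panel wt replicate 1 is the highest point, from 4.86 CPM for Fosb to 102 CPM for Egr1.

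Per length of annotated exons, the order of the genes in KI cochleae ran from Junb and Dusp1 at 10.7 ± 1.37 and 10.5 ± 2.37 CPM per kb, through Jun at 7.99 ± 0.358 and Ier2 at 5.95 ± 1.47, to Fos at 3.89 ± 0.936, Egr1 at 3.65 ± 1.08, Nr4a1 at 3.15 ± 0.326 and Atf3 at 2.80 ± 0.388 CPM per kb (SD, n = 3). Egr3, at 0.711 ± 0.194 CPM per kb, and Fosb, at 0.138 ± 0.0882 CPM per kb, were the lowest. Junb and Dusp1 did not differ beyond their spread, nor did neighbours from Fos to Atf3. In wt cochleae the mean level was highest for Junb, Dusp1 and Fos, at 19.96 ± 13.4, 14.7 ± 6.79 and 14.4 ± 17.0 CPM per kb, and lowest for Egr3 and Fosb, at 0.961 ± 0.436 and 0.357 ± 0.370 CPM per kb (SD, n = 3). The wide spreads came with wt replicate 1, where the order of levels was another. Junb (35.4 CPM per kb) and Fos (34.0 CPM per kb) were highest there, and Egr1 (22.7 CPM per kb) was level with Dusp1 (22.4 CPM per kb).

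Since all 10 genes peaked in a single library, the size of that peak was compared gene by gene with the highest of the other 5 libraries, as a description with no test. Fos was 7.14 times higher in wt replicate 1 than in any other library, the second largest ratio among the 20733 genes tested. Fosb followed at 3.40, Nr4a1 at 3.17, Egr1 at 2.91, Junb at 2.68 and Ier2 at 2.01. Dusp1 (1.74), Egr3 (1.70), Atf3 (1.64) and Jun (1.34) had the smaller ratios.

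The highest library was wt replicate 1 for 10 of 10 genes and for 19.4% of all genes tested. Each of the other libraries was highest for 13.1% (KI replicate 1), 14.6% (KI replicate 2), 22.9% (KI replicate 3), 15.5% (wt replicate 2) or 14.5% (wt replicate 3) of genes. It was at least 1.5 times above every other library for 9 of the 10 genes, and for 0.675% of all genes. KI replicate 3 stood that far above the rest for more genes than any other library (1.51% of all genes), but for none of these 10. The shares were 0.357% for KI replicate 1, 0.4% for KI replicate 2, 0.458% for wt replicate 2 and 0.145% for wt replicate 3. At a ratio of 2 the counts were 6 of 10 genes and 0.212% of all genes. Among the other 5 libraries the highest value of a gene was between 1.23 times (Jun) and 4.31 times (Fosb) the lowest, with a median of 1.64.

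**Figure D2:**
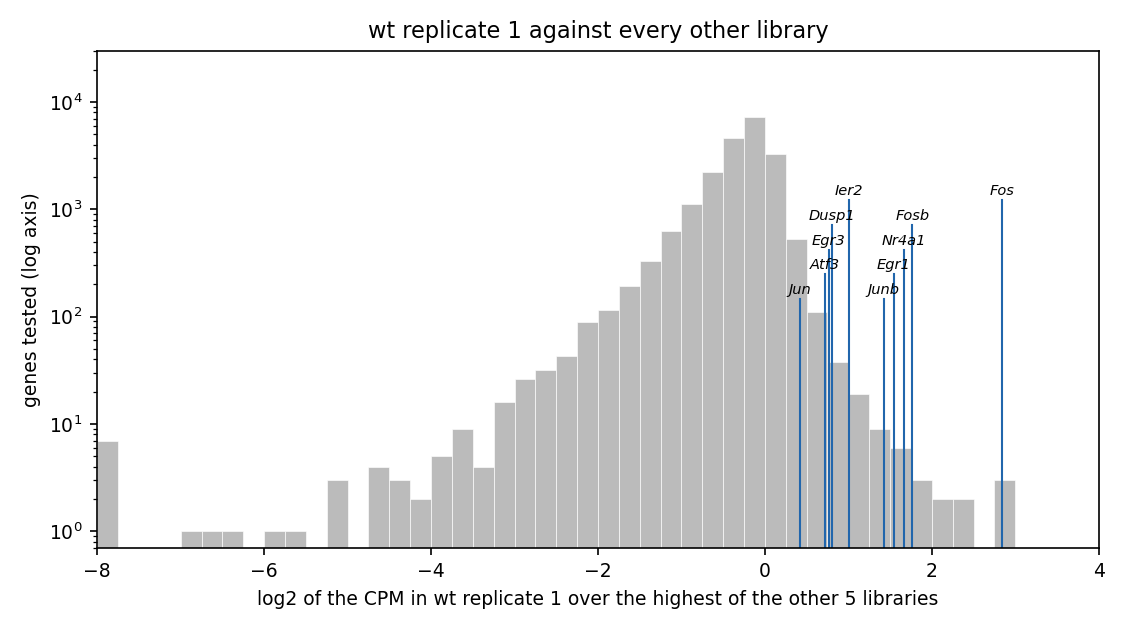
Grey bars count all 20733 genes tested by the log2 ratio of their CPM in wt replicate 1 to the highest of the other 5 libraries, on a log count axis; the lowest bin holds all smaller ratios. Blue lines mark the 10 genes, which lie to the right of 0, from Jun at a ratio of 1.34 to Fos at 7.14.

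KI cochleae were compared with wt cochleae in edgeR's quasi-likelihood test over all genes, with Benjamini-Hochberg adjustment. Of the 10 genes 0 passed (adjusted p between 0.966 and 0.971), where 0.0338% of the 20733 genes tested did in either direction and 0.0241% with lower levels in KI. DESeq2, which called 0.117% of its genes, and limma-voom, which called 0.0386%, also called 0 of the 10. At an unadjusted p under 0.05, edgeR had 5 of the 10 genes lower in KI (Fos, Junb, Egr1, Nr4a1 and Ier2), and 0 higher, against 1.96% of all genes lower and 2.54% higher. DESeq2 had 4 of the 10 lower at that level, against 1.24% of all genes, and limma-voom 1, against 1.9% of all genes. In limma-voom the log2 fold change was -1.15 for Fos and -0.19 for Atf3, each smaller in size by over 1.5 times than in edgeR. In the authors' deposited table none of the 10 passed either, where 0.181% of 18762 genes did, with Ier2 lowest at an adjusted p of 0.726.

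All 10 log2 fold changes were negative, as were 49.8% of those of all genes, and their median was -0.80 against 0.00082 for all genes. Without wt replicate 1, 8 of the 10 were negative (47.6% of all genes), the median was -0.14, 0 passed (0.0189% of all genes), and only Nr4a1 was under an unadjusted p of 0.05, where 2.24% of all genes were lower at that level. Leaving out any other library kept all 10 negative, with medians between -1.02 and -0.72.

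**Figure D3:**
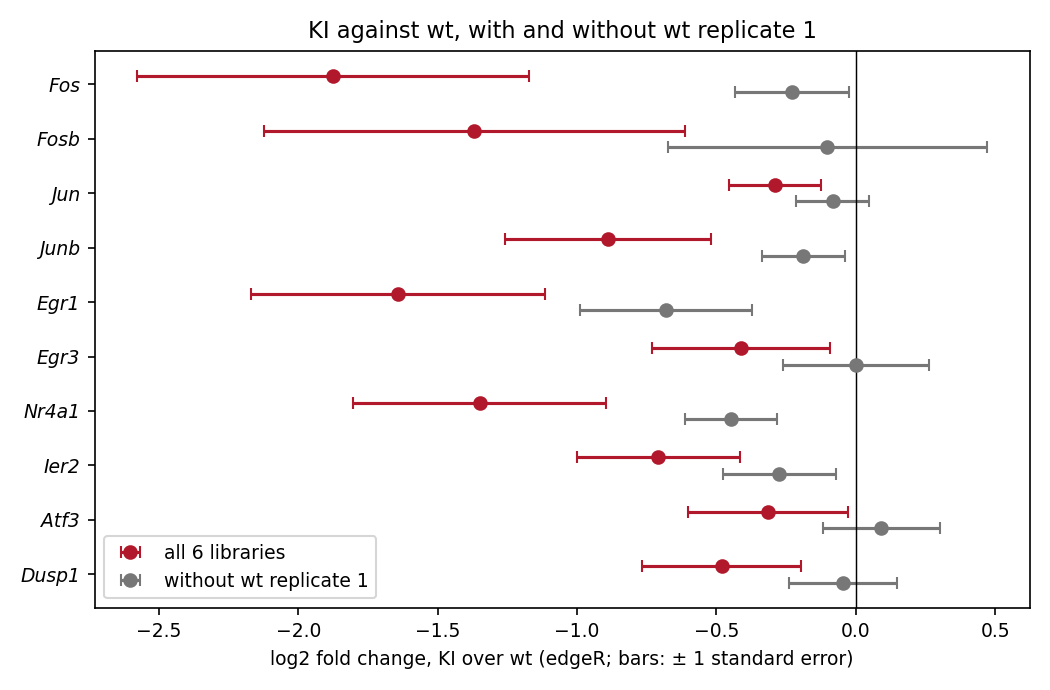
Log2 fold changes of KI over wt for the 10 genes from edgeR, with bars of 1 standard error, for all 6 libraries (red) and without wt replicate 1 (grey). Without that library Egr1 (-0.68) and Nr4a1 (-0.45) are the most negative, and Egr3 (0.0019) and Atf3 (0.092) lie at or above 0.

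Correlation between the genes was taken on log2 CPM (prior count of 2) across the 6 libraries, for all 45 pairs. Pearson's r was positive in every pair, from 0.475 (Fosb with Egr3) to 0.993 (Fosb with Dusp1), with a median of 0.866. An r over 0.8 was seen in 31 of the 45 pairs, 68.9%, against 3.66% of all pairs of tested genes, whose median was -0.0015. Spearman's rho, which does not weigh how far a library stands apart, had a median of 0.486 and went down to -0.0857. By exact permutation of the 720 pairings, two-sided, 19 of the 45 values of r and 3 of the values of rho had p under 0.05, and 0 of either passed after Benjamini-Hochberg adjustment over the 45 pairs.

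Fosb with Dusp1 was the closest pair, with r = 0.993 (exact permutation p = 0.00139, the smallest that 720 pairings give; adjusted p = 0.0625) and rho = 1 (exact permutation p = 0.00278; adjusted p = 0.125). The farthest libraries from the median of Fosb, wt replicate 1 and KI replicate 1, were then both left out, and r was 0.992 over the other 4. Fos with Nr4a1, at r = 0.962 (exact permutation p = 0.0306; adjusted p = 0.0868) and rho = 0.771 (exact permutation p = 0.103; adjusted p = 0.557), had r = 0.678 over 4 libraries. For all 45 pairs wt replicate 1 was among the 2 libraries left out, and the median r over the other 4 was -0.23, positive in 17 pairs. Most of these relations therefore rested on those libraries, wt replicate 1 first.

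Over the 5 libraries other than wt replicate 1 the median r was 0.155 and 28 of 45 pairs were positive. Pairs with r over 0.8 numbered 5, or 11.1%, against 6.25% of all gene pairs over the same libraries. These 5 pairs fell into 2 sets, seen in the data and not tested. Junb went with Egr1 (r = 0.955) and Egr3 (0.836), and Ier2 lay close to Junb (0.765) and Egr1 (0.719). Fosb, Atf3 and Dusp1 went with each other, at 0.997 for Fosb with Dusp1, 0.865 for Fosb with Atf3 and 0.840 for Atf3 with Dusp1.

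Between the sets r was negative, as far as -0.91 for Egr1 with Atf3 and -0.83 for Junb with Atf3. In KI replicate 3, Junb, Egr1, Egr3 and Ier2 were each at their lowest of the 6 libraries, while Fosb, Atf3 and Dusp1 were at their highest outside wt replicate 1. Nr4a1, in neither set, was also at its lowest in KI replicate 3. With KI replicate 3 left out as well, r was taken over 4 libraries. This was done only where that library was among those farthest from the median of the gene named first. Pairs of Fosb, of Egr1 other than with Junb, and of Atf3 with Dusp1 were not taken this way. Between the sets r was -0.82 for Junb with Atf3, -0.51 for Egr3 with Dusp1 and -0.44 for Egr3 with Atf3. It was weaker for Junb with Dusp1 (-0.24), Ier2 with Dusp1 (-0.21) and Ier2 with Atf3 (-0.15). Within the first set it was 0.958 for Junb with Egr1, but 0.277 for Junb with Egr3, -0.73 for Egr3 with Ier2 and -0.037 for Junb with Ier2. Nr4a1 had no negative r with any other gene over the 5 libraries, and was at 0.683 with Ier2. Fos and Jun were placed in neither set, though Fos had r = 0.639 with Fosb and Jun had r = 0.645 with Atf3. With 5 points, which share library depth and scaling, these values are a description.

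**Figure D4:**
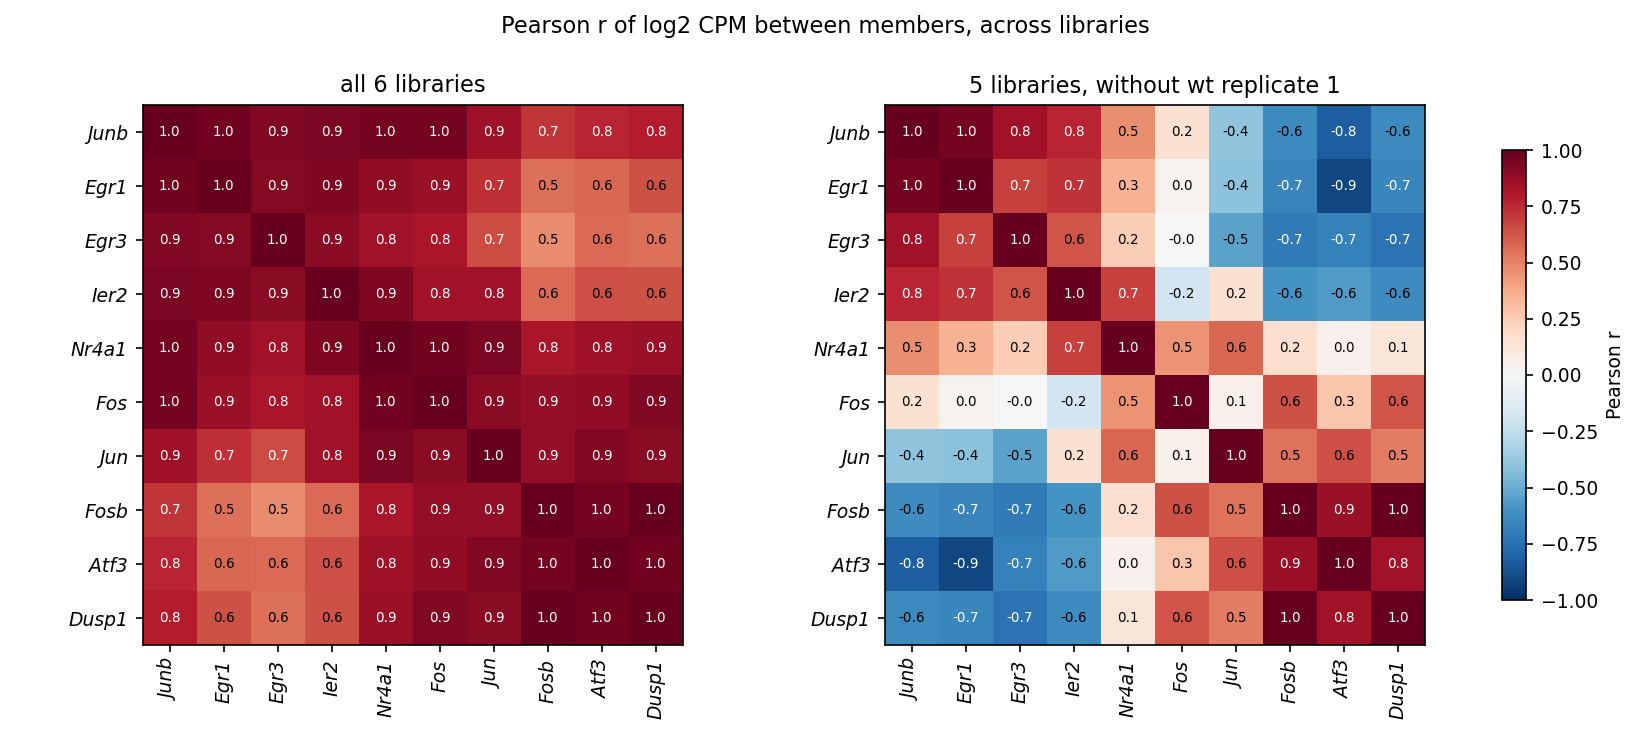
Pearson's r between the 10 genes across all 6 libraries (left) and across the 5 libraries without wt replicate 1 (right), on a colour scale from -1 to 1. On the left every pair is positive, with a median of 0.866; on the right Junb, Egr1, Egr3 and Ier2 are negative with Fosb, Atf3 and Dusp1, and the median is 0.155.

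Further genes of the response were taken as lists, each described by its counts. Over all genes tested, 49.8% had a negative log2 fold change, 19.4% were highest in wt replicate 1, 0.675% exceeded every other library there by 1.5 times or more, and 1.96% were lower and 2.54% higher in KI at an unadjusted p under 0.05. Of 38 other immediate early genes tested, 0 passed in edgeR, 32 were negative and 28 had their highest value in wt replicate 1, 73.7% of the list against 19.4% of all genes, 9 of them by 1.5 times or more. The median log2 fold change of this list was -0.19, and -0.02 without wt replicate 1. At an unadjusted p under 0.05, 2 of its genes were lower in KI and 0 higher, and these were Egr2 and Apold1.

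Egr2, the relative of Egr1 that drives myelination in Schwann cells, was at 6.22, 4.10 and 5.85 CPM in KI and 12.5, 7.84 and 7.62 CPM in wt. The groups did not overlap, as for 4.01% of all genes with KI lower, and Egr2 was chosen for the smallest p of its list. Its log2 fold change was -0.78 (SE 0.232; unadjusted p = 0.00749, adjusted p = 0.966 in edgeR), and -0.52 without wt replicate 1. All 10 markers of neurons and Schwann cells had negative log2 fold changes, against 49.8% of all genes, with Prx of myelin at -0.54. These markers summed to 726 to 1038 CPM in KI and 893 to 1348 CPM in wt, with 893 CPM in wt replicate 1. Their part in the values of Egr2 was not tested. Nr4a2, the relative of Nr4a1, was at 4.86, 6.14 and 4.59 CPM in KI and 13.3, 7.37 and 4.87 CPM in wt (log2 fold change -0.70; edgeR adjusted p = 0.966). Apold1, an endothelial early gene, was at 6.61, 7.61 and 9.62 CPM in KI and 13.2, 9.93 and 8.91 CPM in wt, a log2 difference of -0.43 that did not pass in edgeR (adjusted p = 0.966).

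Of 18 feedback genes of the MAP kinase pathway tested, 17 were negative, against 49.8% of all genes, with a median of -0.12, and -0.10 without wt replicate 1. Of the 18, 9 were highest in that library (19.4% of all genes), 0 by 1.5 times or more (0.675% of all genes). Spry4, a Sprouty inhibitor of receptor tyrosine kinase signalling, was at 8.57, 6.93 and 8.11 CPM in KI and 11.5, 10.9 and 10.2 CPM in wt. Every KI library was below every wt library, as for 4.01% of all genes, and Spry4 had the smallest p of its list. Its log2 fold change of -0.46 (SE 0.132; unadjusted p = 0.00635) did not pass in edgeR (adjusted p = 0.966) and was -0.42 without wt replicate 1. Dusp10 (-0.34) and Dusp4 (-0.36), phosphatases of the same family as Dusp1, had unadjusted p of 0.0284 and 0.0376 in edgeR and the same adjusted p.

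Over 26 kinases and resident factors upstream of the 10 genes the median log2 fold change was -0.07, 16 were negative (49.8% of all genes), 10 were highest in wt replicate 1 (19.4% of all genes) and 0 passed in edgeR. Mapk3, which encodes ERK1, was at 65.1, 57.5 and 52.2 CPM in KI and 70.3, 77.6 and 66.4 CPM in wt. Every KI library was below every wt library, as for 4.01% of all genes, and Mapk3 had the smallest p of its list. The log2 fold change of Mapk3 was -0.29 (unadjusted p = 0.0263, adjusted p = 0.966 in edgeR). Srf, the serum response factor gene, was at 25.1 ± 2.23 CPM in KI and 29.9 ± 3.37 CPM in wt (log2 fold change -0.25, edgeR adjusted p = 0.966).

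Many other stress genes, but not all, were also highest in wt replicate 1. Of 14 heat shock genes 11 were highest there (19.4% of all genes), and 3 exceeded every other library by 1.5 times or more (0.675% of all genes). Hspa1a, an inducible HSP70 gene, was at 9.84, 9.86 and 9.97 CPM in KI and 32.8, 8.28 and 4.54 CPM in wt. Its near-identical copy Hspa1b was at 39.7, 32.9 and 22.7 CPM in KI and 91.9, 20.5 and 11.7 CPM in wt, and reads may be split between them. Dnajb1, an HSP40 cochaperone, was 1.74 times above the next library in wt replicate 1, and Hspd1 was 1.01 times above it. Hspa4l, with the smallest p of the list, was highest in KI replicate 2 (209 CPM, against 174 CPM in wt replicate 1). The median log2 fold change of the list was -0.10, and 0.14 without wt replicate 1, so its direction turned; in limma-voom it was 0.0078.

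Of 13 early NF-kB targets tested 10 were highest in wt replicate 1 (19.4% of all genes), 2 of them by 1.5 times or more (0.675%), with a median log2 fold change of -0.20, and -0.02 without that library. Il1b, the interleukin-1 beta gene, was at 13.2, 20.7 and 14.3 CPM in KI and 50.5, 11.3 and 20.5 CPM in wt. Ptgs2, the inducible cyclooxygenase gene, was 1.89 times above the next library in wt replicate 1. Cxcl10, with the smallest p of this list, was instead highest in wt replicate 3 (5.35 CPM, against 3.38 CPM in wt replicate 1). Integrated stress response genes, a response that also induces Atf3, had a median of -0.12 over 15 genes, and 8 of them were highest in wt replicate 1 (19.4% of all genes), 0 by 1.5 times or more. None of the 3 lists held a gene that passed in edgeR.

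Of the glucocorticoid-induced genes 2 of 14, and of the clock genes 2 of 15, were highest in wt replicate 1 (19.4% of all genes), and 0 of either list passed in edgeR. The median log2 fold change was 0.12 over the glucocorticoid list, and -0.082 without KI replicate 3. It was 0.077 over the clock list. Both lists were lowest in wt replicate 3 by the mean of log2 CPM minus the mean of each gene over 6 libraries. This was -0.19 for the glucocorticoid list and -0.17 for the clock list there, and -0.14 and -0.09 in wt replicate 1. Zbtb16, a glucocorticoid-induced transcription factor gene, was at 78.4, 47.1 and 73.1 CPM in KI and 24.5, 55.7 and 36.8 CPM in wt. Fkbp5, a cochaperone of the glucocorticoid receptor, was at 59.0, 46.6 and 62.2 CPM in KI and 29.1, 46.8 and 36.1 CPM in wt. Nr1d1, the clock repressor REV-ERB alpha, was at 50.4, 51.5 and 47.2 CPM in KI and 26.0, 42.4 and 27.4 CPM in wt. The groups did not overlap, as for 4.71% of all genes with KI higher, and Nr1d1 had the smallest p of its list. The log2 fold change of Nr1d1 was 0.64 (unadjusted p = 0.00462, adjusted p = 0.966 in edgeR). Zbtb16, Fkbp5 and Nr1d1, unlike the means of their lists, were at their lowest in wt replicate 1. Their log2 fold changes without that library were 0.52 for Zbtb16, 0.43 for Fkbp5 and 0.51 for Nr1d1. Lcn2, the lipocalin gene and the third of the glucocorticoid list by p, went the other way, at 422, 384 and 368 CPM in KI and 567, 401 and 496 CPM in wt. It was highest in wt replicate 1, with a log2 fold change of -0.32 (unadjusted p = 0.0498, adjusted p = 0.966 in edgeR).

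**Figure D5:**
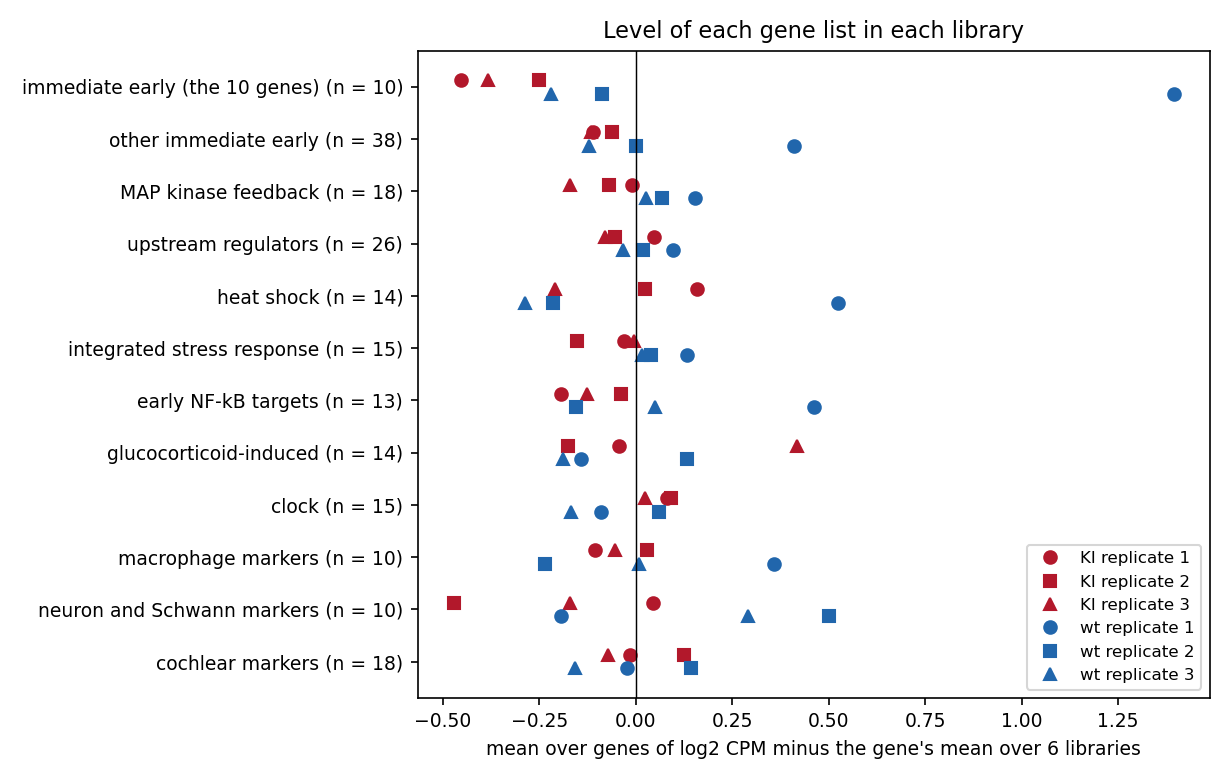
For each list, points give the mean over its tested genes of log2 CPM minus the mean of each gene over 6 libraries, with KI libraries in red above and wt libraries in blue below. In wt replicate 1 the 10 genes average 1.39 above their mean, other immediate early genes 0.41, heat shock genes 0.52 and early NF-kB targets 0.46; the cochlear markers average -0.02.

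Marker lists of other cells were read across the same libraries, since whole cochleae carry bone, marrow and attached tissue. Of 10 macrophage markers 8 were highest in wt replicate 1 (19.4% of all genes), 0 of them by 1.5 times (0.675%), and their summed level was 608 to 662 CPM in KI and 553 to 853 CPM in wt. Of 10 neutrophil markers 6 were highest there, with summed levels of 9605 to 11980 CPM in KI and 9121 to 12883 CPM in wt. Erythroid markers summed to 9366 to 12675 CPM in KI and 8810 to 13418 CPM in wt, and 2 of 9 were highest in wt replicate 1. The markers present in the count table were all detected.

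Markers of fat and cartilage were lowest in that library or close to it. All 10 adipocyte and all 10 cartilage markers had positive log2 fold changes, where 49.8% of all genes were negative. Of these markers 0 passed in edgeR (0.0338% of all genes). At an unadjusted p under 0.05 in edgeR, 10 adipocyte and 7 cartilage markers were higher in KI, against 2.54% of all genes. Adipocyte markers summed to 360 to 1612 CPM in KI and 228 to 401 CPM in wt, with 228 CPM in wt replicate 1. Cartilage markers summed to 287 to 623 CPM in KI and 222 to 343 CPM in wt, with 241 CPM in wt replicate 1. Muscle, bone and endothelial markers had 0, 1 and 1 of 10 genes highest in wt replicate 1, beside 19.4% of all genes. The part of any of these cells in the levels of the 10 immediate early genes was not tested.

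The genes most like the set were found by their correlation with the mean profile of the 10, among 394 named genes with a mean of at least 2 CPM and an SD of at least 0.5 in log2 CPM. The closest was Igkc, the immunoglobulin kappa constant gene (r = 0.991 over 6 libraries, and 0.824 without wt replicate 1), at 175, 190 and 204 CPM in KI and 498, 226 and 209 CPM in wt. Immunoglobulin genes took 7 of the first 10 places, the variable segments being members of families that can share reads. The other 3 were Osm, which encodes the cytokine oncostatin M (r = 0.982), Nr4a2 (r = 0.947) and Snai1, an early-induced repressor gene (r = 0.934). Without wt replicate 1 their r was 0.368 for Osm, 0.805 for Nr4a2 and 0.645 for Snai1, and that of the immunoglobulin genes ran from 0.0942 (Ighv1-64) to 0.940 (Ighv1-22). Osm was at 3.32, 3.14 and 2.95 CPM in KI and 11.7, 3.33 and 3.73 CPM in wt, so that it too was high in a single library. These r values were the highest of 394 and are a description over 6 points. The share of immunoglobulin genes among the 394 is not given here, so their 7 places have no background beside them.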

How the data were processed

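Total RNA of the cochlea was depleted of ribosomal RNA, reverse transcribed with random primers and sequenced from both ends, 93 bases each, as the labels' protocols say. The authors mapped reads to GRCm38 with STAR 2.5.2 and deposited whole-number counts per gene, per the submitters' processing notes. No source used here names the counting program or its strand setting. The authors also deposited regularized log2 values, used here as an alternative for correlations. Their deposited DESeq2 table gives a mean signal, log2 fold changes, a test score and p-values.

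Symbols, positions and exon lengths were joined by identifier from GENCODE M21 (48349 of 48709 matched). The test of the counts was that of edgeR 4.0.16 under R 4.3.3 (filterByExpr, TMM, glmQLFit and glmQLFTest, group as the only term, two-sided, 20733 genes, threshold 0.05). The standard error is the fold change over the square root of F. Chi-square per degree of freedom between libraries was 20.95 to 48.97 over 15 pairs, so none was a repeat. Replicate numbers follow accession order and pair no mice. P-values of KI against wt set the difference between the groups against the spread between these libraries.

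The choices varied were the filter (none, or 1 CPM in 3 libraries), the normalization (RLE, upper quartile), the tool (DESeq2 1.42.0, or limma-voom of limma 3.58.1), the bias-adjusted quasi-likelihood, an Xist covariate and leaving out each library. Scripts were tested on simulated data. Genes of other lists were named if past the threshold, or else were among the 3 with the smallest p of their list; Ptgs2, Hspa1a, Hspa1b, Coch and Strc were chosen after their values were seen. The genes most like the set were the first 10 by r. The genes and lists were chosen with earlier results of these data known. Counting intervals cover counting error only.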

Additional observations from a re-analysis of the deposited data

How the results depend on the processing

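The count of the 10 genes that passed was 0 in edgeR and 0 under each alternative except no filter, where it was 1 (Egr1); with no filter and without wt replicate 1, a combination chosen after seeing the data, it was also 1, the median log2 fold change of the 10 genes was -0.16 and Atf3 was at 0.081. Leaving out each library in turn gave 0 genes passed, 8 to 10 negative log2 fold changes and medians from -1.02 to -0.14; the log2 fold change of Egr3 ran from -0.62 to 0.0019 and that of Atf3 from -0.58 to 0.092, the values of -0.14, 0.0019 and 0.092 being those without wt replicate 1. Of the 150 values of single genes under alternatives, 3 turned positive and 2 passed; limma-voom gave -1.15 for Fos, against -1.88 in edgeR, and -0.19 for Atf3, against -0.31. The median r between the genes was 0.866, and 0.486 as Spearman's rho. It ranged from 0.155 without wt replicate 1 to 0.915 without KI replicate 3, and was 0.836 with each group centred on its own mean and 0.889 on the authors' regularized log values. Over all genes edgeR called 7, and 11 with the Xist covariate, 29 in DESeq2, 76 with no filter and 3 to 21 without a single library; the cause was not tested. Genes of the other pathway lists passed in 0 of these fits. Levels of Fosb, with 11 to 121 counts per library, are limited by depth.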
